A study of Mus musculus with 4 samples.

Results

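The sites described here are 600 poly(A) sites of the mouse autosomes at which the RNA crosslinked to CstF64 lay mainly downstream of the cleavage position. They were chosen by the CLIP-seq of CstF64 replicate 2: at each site at least 80% of the replicate 2 alignment midpoints between -60 and +60 nt of the most used cleavage position fell at +1 to +60. Neighbouring positions of both 3'READS libraries were joined strand by strand across gaps of up to 24 nt into 164123 cleavage clusters. Of these, 14771 were autosomal with 30 or more but fewer than 1000 reads, and 8086 of the 14771 (54.7%) had no replicate 2 midpoint in the window. The 2277 clusters with 5 or more midpoints could be sorted by side, and the 600 sites made up 26.4% of them (95% Clopper-Pearson interval 24.6 to 28.2%). A further 736 sites (32.3%) had at least 80% upstream of the cleavage position. The other 941 (41.3%) had less than 80% on either side and are called sites with midpoints on both sides. Sites are named by chromosome and most used position in mm9, the build in the submitters' processing notes. Gene names and sequence around the sites were not analysed here.

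Messenger RNA 3′ ends are made by cleaving the precursor RNA and adding a poly(A) tail to the upstream product, while the downstream product is degraded. The hexamer AAUAAA upstream of the cleavage position is recognised by the CPSF complex. CstF64 is the subunit through which the cleavage stimulation factor CstF binds RNA, and it contacts U-rich and GU-rich elements that usually lie just downstream. RNA downstream of a cleavage position is therefore found in precursor RNA that has not yet been cut there, in the downstream product before it is degraded, or in RNA that was cut further along.

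The 3'READS method captures poly(A)-containing RNA fragments on beads and sequences them to place the cleavage position. Commercial RNA pooled from 11 mouse cell lines (Agilent) was captured with the CU5T45 oligo, which has 5 U and 45 T, and the captured RNA was released with RNase H (1 library, 6738355 reads). For the other library it was captured with the oligo(dT)10-25 beads of a standard poly(A) selection kit (1 library, 3482826 reads). CLIP-seq isolates RNA crosslinked to a protein by UV light; CstF64 was precipitated with a monoclonal antibody from proliferating C2C12 myoblasts after RNase T1 trimming, as replicates 1 and 2 with 1101047 and 1352122 distinct alignments. The cleavage positions and the CLIP thus come from different cells, no CLIP library without the antibody was used here, and each oligo has 1 library, so no difference between sites or oligos was tested and the intervals cover counting error only.

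The CLIP replicates were not treated as independent. Of the 5528 replicate 1 alignments with a midpoint in the windows of the 600 sites, 4812 (87.0%) were also present in replicate 2. Alignments counted as the same if they began at the same place on the same strand and had equal lengths up to 57 nt. The downstream share, the zone at 61 to 120 nt, the medians of the sites and the ends of the alignments are therefore also given for alignments absent from replicate 2, while the profile and the values of named sites use all alignments. Of the 716 absent in the windows, only 254 also had a 5′ end absent from replicate 2. The others began where a replicate 2 alignment began, so this set is no independent check. The labels do not say whether the replicates came from separate cultures, and the overlap to be expected of separate libraries was not computed.

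The values that chose the sites are given as a description. The median site had 7.5 replicate 2 midpoints, with a range of 5 to 119. Exactly 5 midpoints were present at 144 sites, 10 or more at 224 and 20 or more at 64. All replicate 2 midpoints were downstream at 271 sites, and 78 sites sat exactly at 80%. Just inside the threshold were the sites on chromosome 2 at 121882326 and 163844323, both with 12 of 15 midpoints downstream. Just outside, the highest share was 78.9%, on chromosome 15 at 102842317, where 131 of 166 midpoints were downstream. A total of 159 sites fell at 80 to 85% and 71 at 75 to just under 80%, so the threshold cut through a continuous range of values.

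The sites were spread over all 19 autosomes, from 11 on chromosome 18 to 69 on chromosome 11, with 300 on each strand. Replicate 1 had a median of 6.5 midpoints per site (range 1 to 81), and 141 sites had fewer than 5. Most single sites therefore carried little CLIP signal, and the pattern rests on the sites summed.

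In replicate 1, 5096 of 5528 midpoints within 60 nt of the cleavage position were downstream, which is 92.2% (91.4 to 92.9%). Among the 716 alignments absent from replicate 2 the share was 87.3% (84.6 to 89.6%, 625 midpoints). Among the 254 whose 5′ end was also absent from replicate 2 it was 84.6% (79.6 to 88.8%, 215 midpoints). The same 3 shares were 49.2%, 48.3% and 48.9% at the sites with midpoints on both sides, and 7.35%, 9.29% and 18.6% at the mainly upstream sites. At the mainly downstream and mainly upstream sites, the alignments that replicate 2 lacked thus lay mostly on the side that replicate 2 had chosen. Their shares came closer to 50% as less of the alignment was shared. The shares at the sites with both sides stayed between 48.3% and 49.2%.

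Per site, most replicate 1 alignments are those that replicate 2 had used. All replicate 1 midpoints were downstream at 310 sites, 80 sites fell below 80%, and 1 site fell below 50%. That site, on chromosome 7 at 52959978, had 1 replicate 1 midpoint, at -60, against 4 of 5 replicate 2 midpoints downstream. At least 1 alignment absent from replicate 2 was present at 339 sites, and all such midpoints were downstream at 262 of them (77.3%, 72.5 to 81.6%), with less than 50% downstream at 28 (8.26%). Most of these alignments shared their 5′ end with replicate 2, which chose the side. The mean over sites of equal weight, from all alignments, was 91.3%. The 12 sites with most midpoints held 605 of the 5096 (11.9%). The share was 92.4% on the plus strand and 92.0% on the minus strand. On the opposite strand of the same windows 57 midpoints were counted, against 5528 on the strand of the site; the opposite strand holds another RNA or none and is no measure of unspecific CLIP.

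**Figure D1:**
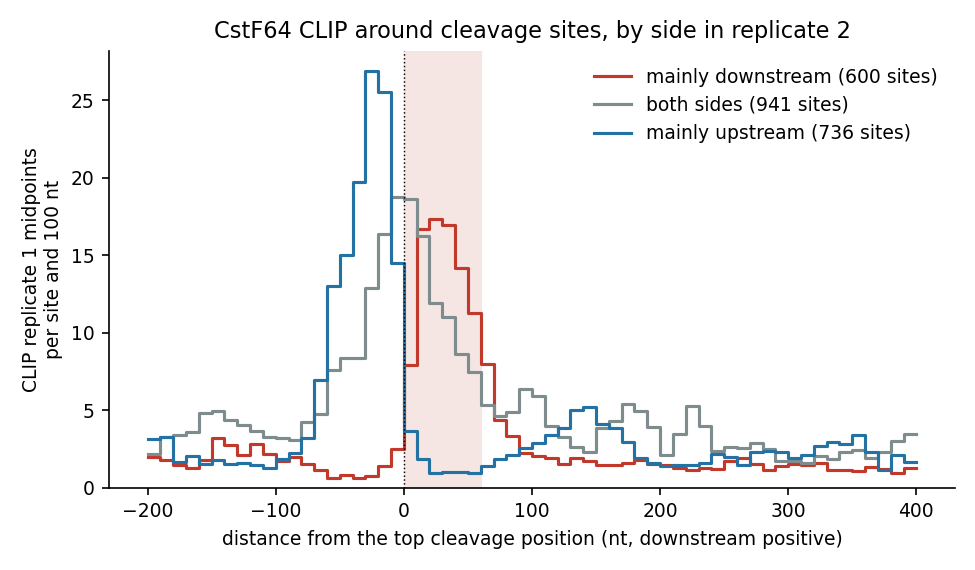
Replicate 1 CLIP midpoints per site and 100 nt (vertical axis) in 10 nt bins by distance from the most used cleavage position (horizontal axis, downstream positive, shaded at +1 to +60), for the 600 mainly downstream sites, the 941 with both sides and the 736 mainly upstream sites. The mainly downstream sites reach 17.3 in the bin at 20 to 29 nt and stay between 0.65 and 2.52 in the 6 bins just upstream; the sides were chosen with replicate 2.

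The replicate 1 midpoints were densest in a broad zone at 10 to 39 nt past the cleavage position, inside the window that chose the sites. A midpoint is the middle of an alignment, whose 5′ end lies further upstream. The density was 7.92 midpoints per site and 100 nt at 0 to 9 nt, 16.7 at 10 to 19 nt, 17.3 at 20 to 29 nt and 17.0 at 30 to 39 nt. It then declined to 11.3 at 50 to 59 nt, 7.97 at 60 to 69 nt and 2.27 at 90 to 99 nt. Beyond the window that chose the sites the density was 3.54 at 61 to 120 nt, 1.65 from there to 200 nt and 1.34 over 200 to 400 nt. Upstream it was 1.18 at -60 to 0, 1.98 at -200 to -61 and 1.46 from over 200 to 400 nt upstream. The signal thus fell towards the level of the distant flanks within about 100 nt, and the mean over -60 to 0 lay below those flanks, which the rule itself favours, although the bin at -10 to -1 was at 2.52.

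Single sites weighed on the flanks. The site on chromosome 4 at 59235700 held 111 of the 1665 midpoints at -200 to -61, and the density there without it was 1.85. The site on chromosome 13 at 48630891 held 134 of the 1273 midpoints at 61 to 120 nt, and without it the density was 3.17. Both sites are described with their reads further on.

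Midpoints at 61 to 120 nt were not used by the rule, but this zone adjoins the window that chose the sites. Replicate 1 alignments were up to 69 nt long, so those centred just past 60 nt overlap that window. The density at the mainly downstream sites ran on from 11.3 at 50 to 59 nt to 7.97 at 60 to 69 nt and 4.38 at 70 to 79 nt. At least 1 replicate 1 midpoint lay there at 54.2% of the sites (50.1 to 58.2%), at 47.7% of the sites with both sides (44.5 to 51.0%) and at 37.6% of the mainly upstream sites (34.1 to 41.2%). The density there did not follow that order: it was 3.54 at the mainly downstream sites, 5.13 at the sites with both sides and 2.42 at the mainly upstream sites. CLIP at 61 to 120 nt was thus present at more of the mainly downstream sites but was not densest there. The order of the shares of sites is itself favoured by choosing sites in the adjoining window. Among alignments absent from replicate 2, a midpoint in this zone was present at 16.8%, 15.7% and 10.1% of the sites in the same order, and the differences were not tested.

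The position of the CLIP signal varied among the sites. The median replicate 1 midpoint of a site lay at 27 nt in the median site (25.5 to 29 nt), with quartiles of 17 and 39.1 nt. It fell at over 0 to 20 nt at 201 sites, over 20 to 40 nt at 257, above 40 nt at 139 and at or upstream of the cleavage position at 3. From alignments absent from replicate 2 the median over 339 sites was 24 nt (22 to 28 nt). The 3 exceptions were on chromosome 3 at 57259570 and on chromosome 7 at 52959978 and 129132278. Summed over sites, 10.9% of the downstream midpoints lay at 1 to 10 nt, 19.9% at 11 to 20 nt, 20.3% at 21 to 30 nt, 19.7% at 31 to 40 nt, and 12.9% at 51 to 60 nt. At the sites with both sides 25.1% lay at 1 to 10 nt, and at the mainly upstream sites 36.9%. Among alignments absent from replicate 2 these 3 shares were 12.8%, 26.3% and 41.8%. The downstream midpoints of the other groups thus lay nearer the cleavage position in either set, which the sorting of sites by side itself favours.

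**Figure D2:**
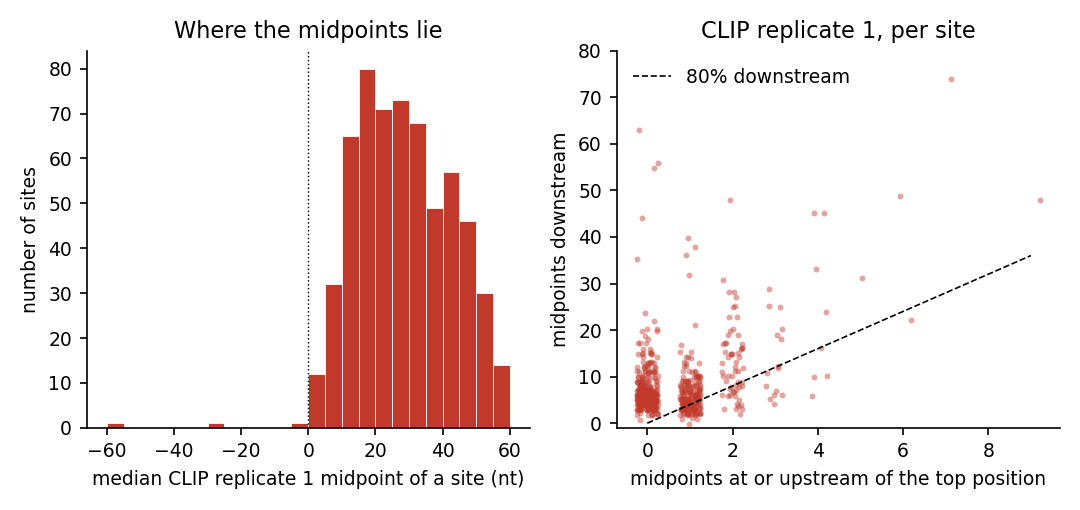
Left, number of sites (vertical axis) by the median replicate 1 midpoint of the site in nt from the cleavage position, in bins of 5 nt; right, replicate 1 midpoints downstream against those at or upstream of the cleavage position at each of the 600 sites, with points spread sideways to separate them and the 80% line dashed. The medians centre on 27 nt with 3 sites at or below 0, and 80 sites lie below the line.

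The ends of the alignments were placed against the cleavage position. Of the 5528 replicate 1 alignments, 3796 (68.7%, 67.4 to 69.9%) lay wholly downstream of the cleavage position, 1523 (27.6%) spanned it and 209 (3.78%) ended upstream. Of the 716 absent from replicate 2, fewer lay wholly downstream (413, 57.7%, 54.0 to 61.3%) and more spanned the position (274, 38.3%). An alignment that spans the position, or lies wholly past it, holds RNA downstream of the most used position. Other positions of the cluster can lie further along, and which RNA these alignments came from was not tested. The corresponding shares over all 2277 sites were 27.7%, 37.8% and 34.6%. The median alignment was 34 nt long, against 37 nt at both other groups.

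The 5′ ends of the replicate 1 alignments lay on both sides of the cleavage position, with 1 position standing above the rest. Each position from -7 to +25 nt had an end at 9.5% of the sites or more. An end lay at +1, counted as the first nucleotide past the most used position, at 115 of the 600 sites (19.2%), with 173 ends in all. The neighbouring counts were 77 sites at 0 (12.8%) and 67 sites at +2 (11.2%), 98 sites had an end at -1 (16.3%), and 87 had one at +20 (14.5%). Over all 2277 sites an end at +1 was present at 258 (11.3%), at 0 at 177 (7.77%) and at +2 at 134 (5.88%). The +1 position thus exceeded both neighbours at the mainly downstream sites and over all sites. Of the alignments absent from replicate 2, only 21 had their 5′ end at +1, at 20 of the 600 sites (3.33%), against 10 sites (1.67%) each at 0 and +2, with exact intervals that overlap (2.05 to 5.10% and 0.80 to 3.04%). The sources used here do not state whether positions count from 0 or 1, which leaves the exact nucleotide known to within 1 nt. The 5′ end is the start coordinate on the plus strand and the end coordinate on the minus strand, so an offset may differ between strands. The counts are given for both strands together, and the reason for the excess was not tested.

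**Figure D3:**
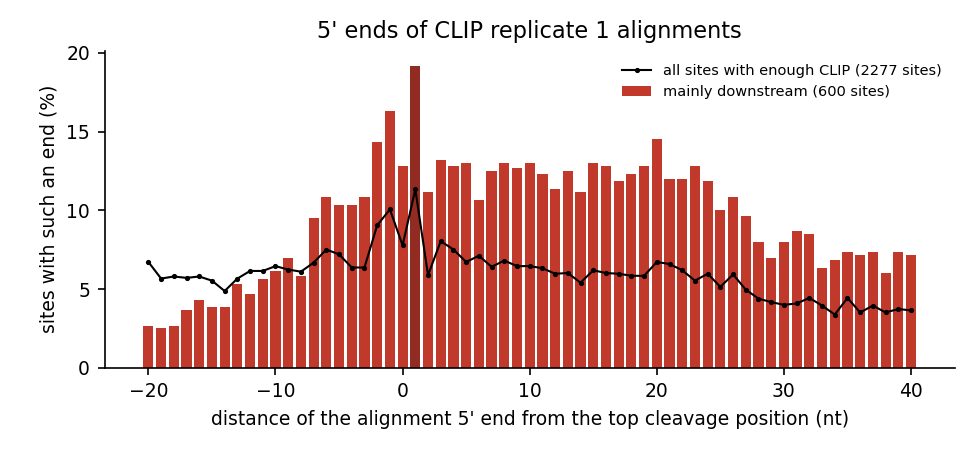
Percent of sites with at least 1 replicate 1 alignment 5′ end (vertical axis) at each distance in nt from the most used cleavage position (horizontal axis), as bars for the 600 mainly downstream sites and as a line for all 2277 sites with enough CLIP. The dark bar at +1 reaches 19.2%, against 12.8% at 0 and 11.2% at +2.

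Cleavage spread describes how many positions share the reads of a cluster. The median span of the 600 clusters was 14 nt (13 to 16 nt; quartiles 8 and 25 nt; range 1 to 128 nt) with a median of 5 positions. The median share of reads at the most used position was 73.9% (71.8 to 76.9%; quartiles 55.3 and 89.5%; lowest 24.6%). In 30 reads drawn from a site, a median of 3.36 positions is expected (3.20 to 3.60), which compares sites at equal depth. Most sites therefore had a dominant position with a few minor ones close by.

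The spread resembled that of the other groups. The sites with both sides had a median span of 16 nt, a top position share of 71.4% and 3.66 positions in 30 reads. The mainly upstream sites had 16 nt, 72.1% and 3.53, and the 14771 autosomal clusters 14 nt, 73.0% and 3.46. The interval of each median at the 600 sites includes the autosomal value. The top share and the positions in 30 reads of the sites with both sides lie just outside those intervals. Depth differed between groups, with a median of 126 reads at the mainly downstream sites, 148 at those with both sides, 123.5 at the mainly upstream sites and 92 over the autosomal clusters.

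**Figure D4:**
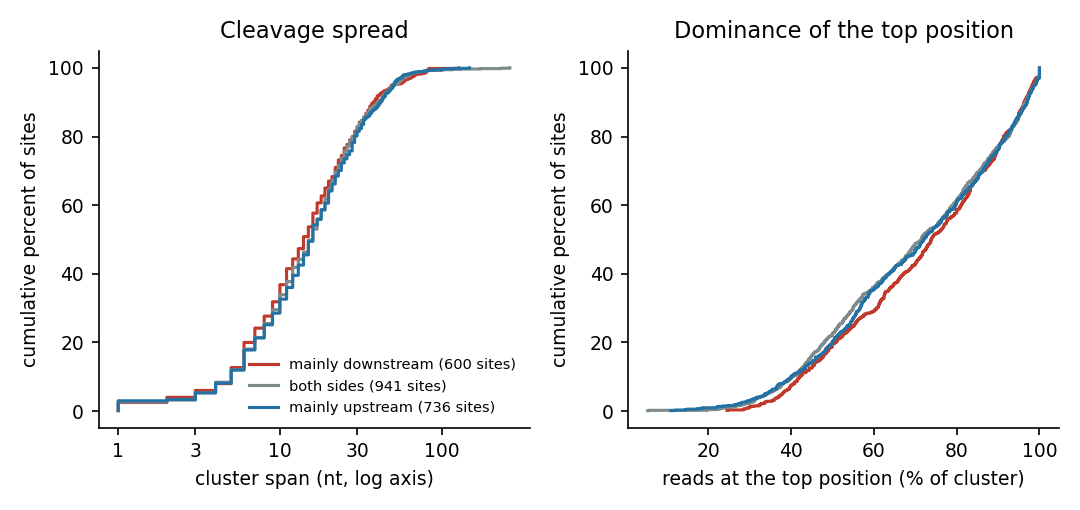
Cumulative percent of sites (vertical axes) by cluster span in nt on a log axis (left) and by the percent of the cluster's reads at its most used position (right), for the mainly downstream, both-sided and mainly upstream sites. The 3 curves run close together, with medians of 14, 16 and 16 nt and of 73.9%, 71.4% and 72.1%.

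Span grew with depth, while dominance and the count at fixed depth did not. The 251 mainly downstream sites with 30 to 99 reads had a median span of 11 nt and a top share of 74.2%. The 205 sites with 100 to under 300 reads had 16 nt and 72.8%, and the 144 with more reads had 21 nt and 76.8%. The expected positions in 30 reads were 3.28, 3.66 and 3.28. Over all sites with enough CLIP, the spans in the same classes were 12, 16 and 19 nt.

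Very narrow and very wide clusters were about as frequent as over all sites. A single position held all reads at 15 sites (2.50%, against 2.72% over all 2277), a span over 50 nt was present at 30 (5.00% against 5.05%), and a top share of 90% or more at 142 (23.7% against 23.5%). Reads off the most used position lay downstream of it for 15.6% of all reads and upstream for 12.4%. By site, the downstream ones were more numerous at 320 sites (53.3%) and the upstream ones at 251 (41.8%). At the mainly upstream sites these shares of sites were 51.2% and 43.3%, the same order, while the pooled reads there gave 14.5% downstream and 15.2% upstream. Among the 348 sites with 30 or more reads from each oligo, both libraries had the same most used position at 316 (90.8%, 87.3 to 93.6%), against 90.3% over all sites.

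Where the CLIP lay downstream was compared with the spread. The sites with a median midpoint above 40 nt had a median span of 17 nt and a top share of 71.4%. The sites at over 0 to 20 nt and over 20 to 40 nt both had a span of 14 nt, with top shares of 77.6% and 73.3%. More CLIP did not move these values far: the 376 sites with 5 to 9 replicate 2 midpoints had a span of 15 nt and a median midpoint at 27.25 nt, and the 224 with 10 or more had 13 nt and 27 nt.

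The widest and narrowest sites show the range. The cluster on chromosome 7 at 133938747 (minus strand) spanned 128 nt over 19 positions, with 815 CU5T45 and 174 oligo(dT)10-25 reads, yet 95.9% of the reads were at 1 position; its CLIP was 6 of 6 midpoints downstream in each replicate. The cluster on chromosome 12 at 112784826 (plus strand) spanned 84 nt with 46 and 31 reads, and its most used position held 36.4%. On chromosome 1 at 137198253 (minus strand), 232 and 188 reads spread over 83 nt with 48.3% at the top. A wide span thus occurred both with a dominant position and without one. At the other end, all reads fell on 1 position on chromosome 12 at 101445524 (188 and 117 reads), on chromosome 4 at 43045285 (147 and 18), on chromosome 10 at 22822767 (53 and 36) and on chromosome 6 at 29862309 (47 and 33).

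The ratio of the oligos compares the share of CU5T45 reads at a site with the share of oligo(dT)10-25 reads, each over all reads of its library. The median log2 ratio over the 600 sites was 0.10 (-0.03 to 0.20), with an SD of 1.15 across sites and quartiles of -0.54 and 0.63. The ratio was within 2-fold of equality at 444 sites (74.0%). Its exact 95% interval lay above 1 at 171 sites (28.5%), where the same was seen at 24.6% of the 14771 autosomal clusters. It lay below 1 at 143 sites (23.8%), against 22.8% of the autosomal clusters. The interval of the share below 1 (20.5 to 27.5%) includes the background value. The interval of the share above 1 (24.9 to 32.3%) lies just above its background value. Depth differed between these sites and the autosomal clusters, as given above, and the difference in shares was not tested.

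Large differences were few. The ratio was 4-fold or more higher with the interval above 1 at 16 sites (2.67%, background 1.83%), and 4-fold or more lower at 19 (3.17%, background 4.74%). The median log2 ratio was 0.18 (0.11 to 0.25) at the sites with both sides and 0.27 (0.21 to 0.34) at the mainly upstream sites, and 0.10 over the autosomal clusters. The median at the mainly downstream sites thus equalled that of all clusters to 2 decimals and was the lowest of the 3 groups with CLIP, a difference that was not tested. By the place of the CLIP, the median log2 ratio was -0.06 at sites with a median midpoint over 0 to 20 nt, 0.16 at over 20 to 40 nt and 0.14 above 40 nt.

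**Figure D5:**
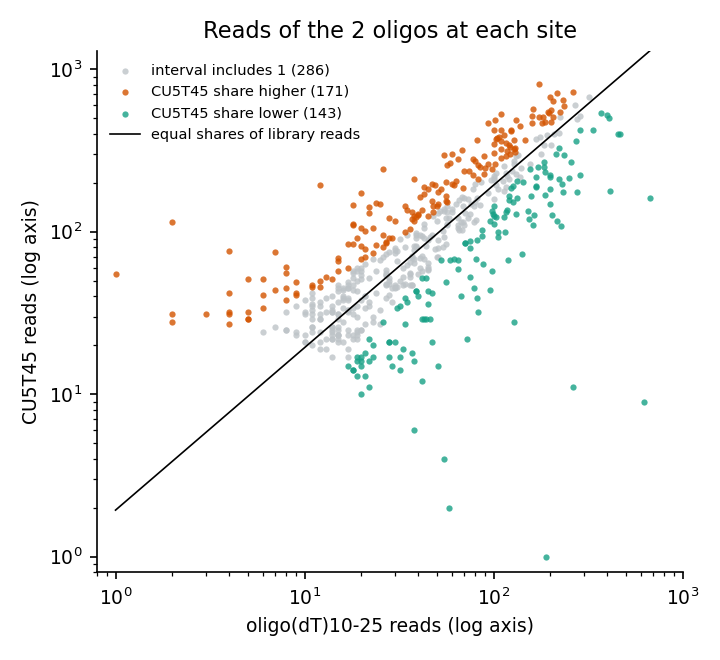
CU5T45 reads (vertical log axis) against oligo(dT)10-25 reads (horizontal log axis) at each of the 600 sites, coloured by whether the exact 95% interval of the ratio of library shares lies above 1 (171 sites), below 1 (143) or includes it (286); the line marks equal shares. Most sites lie along the line, and the 4 sites with the lowest ratios lie far below it, at 1 to 11 CU5T45 reads.

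The highest ratios belonged to sites with very few oligo(dT)10-25 reads. On chromosome 13 at 3565066 (plus strand) the CU5T45 library had 115 reads and the other 2, a ratio of 29.7 (8.04 to 248), and 12 of 14 replicate 1 midpoints were downstream. On chromosome 3 at 58397056 (plus strand) the counts were 55 and 1, a ratio of 28.4 (4.89 to 1143). These intervals are wide because 1 or 2 reads set the lower side. Better measured were the site on chromosome 16 at 38498723 (minus strand), with 194 and 12 reads and a ratio of 8.36 (4.68 to 16.5), and that on chromosome 1 at 187110579 (minus strand), with 76 and 4 reads and a ratio of 9.82 (3.68 to 37.0). The chromosome 1 site had another cluster of 348 reads 42 nt downstream.

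The lowest ratios lay further from 1 and rested on 1 to 11 CU5T45 reads. On chromosome 6 at 133057767 (plus strand) the CU5T45 library had 9 reads and the oligo(dT)10-25 library 624, a share 134-fold lower (70.2 to 295), with 99.1% of reads at 1 position and 15 of 17 replicate 1 midpoints downstream. On chromosome 11 at 55208906 (minus strand) the counts were 1 and 190, a share 368-fold lower with an interval of 65.2 to 14595, since 1 read set it. Those reads were scattered over 20 positions in 65 nt, with 39.3% at the most used position. On chromosome 8 at 87230026 (minus strand) 11 and 262 reads spanned 80 nt with 89.4% at the most used position. On chromosome 5 at 33370611 (plus strand) the counts were 2 and 58, with 88.3% at the top. Of these 4 sites, 3 thus had a dominant position and 1 was scattered.

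The sites with most CLIP show the pattern at single sites. The largest count was on chromosome 13 at 48630891 (minus strand), with 74 of 81 replicate 1 midpoints downstream and 111 downstream in replicate 2. Their median lay at 51 nt, near the edge of the window. With 382 reads in the CU5T45 and 107 in the oligo(dT)10-25 library its ratio was 1.85 (1.49 to 2.31), and 98.8% of the reads were at 1 position. It thus combined a fixed cleavage position with distant CLIP that continued past 60 nt.

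At 4 of the 12 sites with most CLIP every replicate 1 midpoint was downstream. On chromosome 3 at 90409963 (plus strand) there were 63 of 63, with 81 in replicate 2, a median at 42 nt, and 118 and 81 reads over 6 nt. On chromosome 14 at 62991347 (plus strand) there were 56 of 56, with 61 in replicate 2 and a median at 44 nt. Here the CU5T45 share was 3.60-fold lower (2.86 to 4.55; 116 and 216 reads), and the interval of the ratio lay below 1 at 3 of the 12 sites and above 1 at 5, where 22.8% and 24.6% of the autosomal clusters did so. On the plus strand of chromosome 18, a site with 295 and 135 reads had 55 of 55 midpoints downstream, and a cluster of 14 reads lay 28 nt downstream. On chromosome 9 at 21571227 (minus strand) there were 44 of 44, with a median at 49 nt and 210 and 83 reads, of which 45.7% were at the most used position.

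Among the other 8 were sites with few cleavage reads, of which 3 are given here. The site on chromosome 13 at 55599774 (minus strand) had 29 and 5 reads against 49 of 55 replicate 1 midpoints downstream. The site on chromosome 5 at 32459461 (plus strand) had 25 and 8 reads against 48 of 50. The site on chromosome 8 at 72430971 (minus strand) had 45 and 17 reads against 48 of 57. At the first and second of these the downstream midpoints outnumbered the cleavage reads, which come from different cells.

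At a pair of sites the CLIP lay close. On chromosome 3 at 60433669 (plus strand) 45 of 49 midpoints were downstream with a median at 18 nt, and 88 and 75 reads spread over 35 nt with 49.1% at the top. On chromosome 4 at 59235700 (plus strand) 45 of 49 were downstream with a median at 17 nt, and the CU5T45 share was 6.77-fold lower (3.50 to 14.1; 12 and 42 reads). This is the site with 111 further midpoints at -200 to -61. The last of the 12 were on chromosome 11, at 97891806 (plus strand; 40 of 41 midpoints, 119 and 37 reads, median at 33 nt) and at 116940268 (plus strand; 38 of 39, 315 and 118 reads, median at 45 nt).

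The 4 sites with most reads had CLIP near the median of the 600, with 928 to 992 reads and 3 to 8 replicate 1 midpoints downstream. On chromosome 8 at 74746921 (plus strand), 673 and 319 reads went with 3 of 4 midpoints downstream. On chromosome 1 at 94817156 (plus strand), 726 and 264 reads, only 36.0% of them at the most used position, went with 6 of 7. On chromosome 6 at 72303141 (plus strand), 712 and 216 reads went with 8 of 9.

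Cleavage further along the same strand was counted because RNA cut there contains the stretch downstream of the site. The next cluster of 3 or more reads on the same strand lay 1 to 100 nt downstream at 53 sites (8.83%, 6.69 to 11.4%), over 100 to 500 nt at 116 (19.3%) and over 500 to 2000 nt at 95 (15.8%). No cluster lay within 2000 nt downstream at 336 sites (56.0%). The share with a neighbour within 100 nt was 7.55% at the sites with both sides and 9.78% at the mainly upstream sites, so the 3 groups lay close together. Upstream, 70 sites (11.7%) had a neighbour within 100 nt.

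The near downstream neighbours were mostly minor. They had a median of 20 reads (3 to 1516), and 14 of 53 (26.4%) had more reads than the site itself. At these 53 sites 401 of 522 downstream midpoints (76.8%, 73.0 to 80.4%) lay before the most used position of the neighbour. Sites whose median midpoint lay further out had such a neighbour at 18 of 139 (12.9%), against 14 of 201 (6.97%) for those at over 0 to 20 nt and 21 of 257 (8.17%) at over 20 to 40 nt; the difference was not tested.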

How the data were processed

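Each deposited line is a genomic position or alignment with its strand and its count of reads, the unit deposited by the authors, with no normalization stated per the labels; the submitters' processing notes name mm9, Bowtie and Novoalign. Read filters are not given in the sources used here. The annotation at hand was of another build and was not used, so planned searches of sequence and gene lists were not analysed here. Positions were pooled over both oligos and chained as described; each distinct CLIP alignment counted once, by its midpoint, with midpoints between positions rounded down. Ratios used all reads of each library (6738355 and 3482826) and exact conditional binomial intervals; shares have Clopper-Pearson intervals and medians have intervals from binomial order statistics, all at 95%. A count of 0 would have been set to 3 reads, which no member needed. Positions in 30 reads were computed exactly. Reads of PCR libraries without molecular identifiers are not independent molecules, and intervals cover counting error only. No p-value was computed.

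Named sites are the 12 with most replicate 1 midpoints downstream, the 4 with the highest and the 4 with the lowest ratio whose interval excludes 1, the 4 widest, the 4 narrowest, the 4 with most reads and 3 on either side of the threshold; examples are given from each, and the exceptions below 50% or with a median at or upstream of cleavage were added after their values were seen. Members and lists were chosen with earlier results of these data known. Alternatives changed the 80% share, the midpoint minimum, the gap, the alignment end, the counting of reads, the neighbour minimum, and the library used. Clustering, placing and ratios were tested on simulated data. Computations ran in Python 3.11.15 with scipy 1.17.1, numpy 2.4.6 and pandas 2.3.3, and plots were drawn with matplotlib 3.10.9.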

Additional observations from a re-analysis of the deposited data

How the results depend on the processing

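Of 96 recomputed values over 8 results, 68 stayed and 28 moved, where a share or median had to stay within the 95% interval of the reported value and a number of sites within 1.5 times the 600. The number of sites was 348 at 90% or more downstream and 224 with 10 or more midpoints, and ranged from 224 to 844. The replicate 1 share downstream was 87.6% with sites at 70% or more, 97.0% at 90% or more, 91.3% with alignments placed by the 5′ end, 93.0% by the 3′ end, 90.3% without CLIP replicate 2 (sites then chosen by replicate 1 itself), 87.3% and 84.6% for alignments and 5′ ends absent from replicate 2, and 91.3% with sites of equal weight. The share of alignments wholly downstream was 60.8% at 70%, 75.8% at 90%, 70.3% with 10 or more midpoints, 91.3% by the 5′ end and 34.3% by the 3′ end. It was 64.6% without CLIP replicate 2, and 57.7% and 57.5% for alignments and 5′ ends absent from it. By the 5′ end this share is the downstream share itself, so the values are the same by definition. A looser or stricter rule for the sites also moves both shares by itself. The median span was 11 nt at a gap of 10 nt, 18 nt at 50 nt, 12 nt with CU5T45 reads only and 10 nt with oligo(dT)10-25 reads only, which have fewer reads. The median top share was 70.5% by the 5′ end, the positions in 30 reads 3.17 at a gap of 10 nt, and the log2 ratio -0.044 at 90% or more. The share with a downstream neighbour within 100 nt was 16.9% at a gap of 10 nt, which splits clusters, 3.38% at 50 nt, which joins them, and 6.33% with neighbours of 10 or more reads. Other causes were not tested.

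Which sites qualify depends on how alignments are placed. By the 5′ end 436 sites qualified, 287 of them (65.8%) among the 600, which is 47.8% of the 600. By the 3′ end 844 qualified and 396 were shared (46.9% and 66.0%). Chosen by replicate 1, 514 qualified and 433 were shared (84.2% and 72.2%). At 144 sites the side rests on 5 midpoints.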
